A study of Mus musculus with 3 samples.

Results

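Transcripts of 10 genes that report on or restrain the extracellular signal-regulated kinase (ERK) pathway were compared between Colon26, a line of mouse colon adenocarcinoma, and the sublines LuM1 and NM11 derived from it. The genes were the dual-specificity phosphatases *Dusp4* and *Dusp6*, the Sprouty genes *Spry1*, *Spry2* and *Spry4*, the PEA3 group of ETS transcription factors *Etv1*, *Etv4* and *Etv5*, and the ETS factors *Ets1* and *Ets2*. They were chosen by their symbols as a functional group, with earlier results of these data known. They were read by every array probe whose transcript accession maps to 1 of these symbols, which gave 13 probes among 32989 named probes, and the 10 genes stand among 22911 named genes. *Spry2*, *Etv4* and *Ets1* had 2 probes each and the other genes had 1, and each probe was printed as a single spot.

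In the ERK pathway, growth factor receptors load RAS with GTP, RAS recruits RAF kinases, and RAF activates MEK, which phosphorylates ERK. Active ERK switches on genes that damp the pathway again, among them DUSP phosphatases, which remove the activating phosphates from MAP kinases, and Sprouty proteins, which act between the receptor and RAF. ERK also phosphorylates ETS1 and ETS2 and raises the transcription of the PEA3 factors, so that the levels of these transcripts are often read as markers of pathway output. In the intestine the pathway is best known downstream of the epidermal growth factor receptor.

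All 3 lines carry the labels of female BALB/c mice and were grown without a drug or genetic treatment in RPMI1640 with serum. LuM1 is the highly metastatic subline, NM11 is a subline of low metastatic potential, and Colon26 is their parent. After 3 days of culture, 0.1 µg of total RNA was labelled with Cy3 and hybridized to 1 array for each line, 3 arrays in all. The animals' age and the passage of the cells are not given in the sources used here. Each line was thus 1 culture on 1 array, so that line, culture and array cannot be told apart, no test was run, and a p-value cannot be had. In RNA from a whole culture, fewer cells with a transcript and less RNA per cell cannot be told apart either.

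Spot brightness was scaled so that the 75th percentile of every array became 585.1. The deposited percentiles lay between 551.5 and 625.1. The scanner software called between 49.9% and 53.8% of the probes of an array well above background and none saturated. Errors given as ± are those of the scanner software, about 10.0% of a bright signal, and cover the reading of 1 spot only. Repeated probes on 1 array varied by a median SD of 0.035 to 0.040 (log2). A gene is called different where its levels differ at least 2-fold, a rule of size and not of significance. Where a gene has several probes the brightest is used. The dimmer probe is given beside it for the members, and for other named genes where it differs in direction or call. Signals are compared between lines for the same probe only.

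To show what lies upstream of genes of the set that moved in opposite directions in LuM1 cells, the 250 bases before the RefSeq transcription start (mouse assembly GRCm38.p6) are printed for *Dusp6* and *Etv1*, which were higher in LuM1 than in Colon26 cells, and for *Etv5* and *Ets2*, which were lower. Capitals mark the ETS core GGAA on either strand (TTCC where the core lies on the other strand). The windows run 5′ to 3′ toward the start and lie at chr10:99262981-99263230 (plus strand) for *Dusp6*, chr12:38779832-38780081 (plus) for *Etv1*, chr16:22439571-22439820 (minus) for *Etv5* and chr16:95702157-95702406 (plus) for *Ets2*.
Dusp6: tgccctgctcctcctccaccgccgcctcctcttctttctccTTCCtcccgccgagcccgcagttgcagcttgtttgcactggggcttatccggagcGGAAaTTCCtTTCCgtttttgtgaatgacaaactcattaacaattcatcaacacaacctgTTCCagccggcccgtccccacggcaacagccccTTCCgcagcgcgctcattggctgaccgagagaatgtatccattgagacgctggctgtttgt
Etv1: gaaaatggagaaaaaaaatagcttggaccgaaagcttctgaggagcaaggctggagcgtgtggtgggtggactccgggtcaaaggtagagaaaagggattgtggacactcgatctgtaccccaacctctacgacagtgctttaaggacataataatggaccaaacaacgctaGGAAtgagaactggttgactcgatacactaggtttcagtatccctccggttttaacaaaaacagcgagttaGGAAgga
Etv5: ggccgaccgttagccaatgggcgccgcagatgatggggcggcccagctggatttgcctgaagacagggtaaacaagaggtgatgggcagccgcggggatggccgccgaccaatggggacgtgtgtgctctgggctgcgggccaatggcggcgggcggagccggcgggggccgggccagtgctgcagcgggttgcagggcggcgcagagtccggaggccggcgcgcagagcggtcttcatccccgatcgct
Ets2: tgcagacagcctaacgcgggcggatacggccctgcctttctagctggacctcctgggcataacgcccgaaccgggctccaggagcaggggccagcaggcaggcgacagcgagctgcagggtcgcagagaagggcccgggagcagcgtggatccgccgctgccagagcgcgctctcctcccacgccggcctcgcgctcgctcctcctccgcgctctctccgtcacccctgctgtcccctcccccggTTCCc

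The *Dusp6* window held 6 ETS cores, that of *Etv1* held 2, that of *Ets2* held 1, and that of *Etv5* held 0. Of the windows not printed, that of *Spry1*, also higher in LuM1 than in Colon26 cells, held 1, and that of *Spry2* held 3. An ETS core was present in 93.4% of all 32851 windows of this length, with a median of 3, so its presence is common. *Etv1* and *Etv5* each have a second start. The window of the second *Etv1* start held 1 core, and that of the second *Etv5* start, at chr16:22438369-22438618, held 4. The longer ETS site CCGGAA was found in 12.0% of all windows, the AP-1 site TGANTCA in 6.75% and the CArG box, bound by serum response factor, in 1.47%, all searched on both strands. None of the 8 windows of the 6 genes that had one in the table used held any of these. The longer ETS site contains the core, so a match to it counts as a match to both. The GC content was 71.2% for *Etv5* and 71.6% for *Ets2*, against 56.4% for *Dusp6* and 46.4% for *Etv1*, but it was 62.4% for *Spry1*, which was higher in LuM1 than in Colon26 cells, and 62.0% at the second *Etv5* start. A match of these letters is a description of the sequence and not evidence of binding.

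Against Colon26 cells, LuM1 cells had higher levels of *Dusp6*, *Spry1*, *Etv1* and *Ets1* and lower levels of *Spry4*, *Etv5* and *Ets2*, so that each functional class except the phosphatases moved in both directions. Thus 4 of the 10 genes passed 2-fold upward and 3 passed it downward, which became 4 and 1 in the authors' processed values, where *Etv5* and *Ets2* fell short of 2-fold. Of all 14353 genes well above background on either array, 12.9% passed it upward and 11.7% downward, 24.6% in either direction. In the authors' processed values 3038 of these genes passed it upward and 874 downward, against 1856 and 1679 at the reported scaling. The share of members that passed at the reported scaling was above the background of 24.6%, but no test of it was made. The members were chosen with earlier results of these data known, so this is not an independent comparison. The median log2 ratio was -0.09 over the 9 members measured on both arrays and -0.13 over all 12397 such genes.

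**Figure D1:**
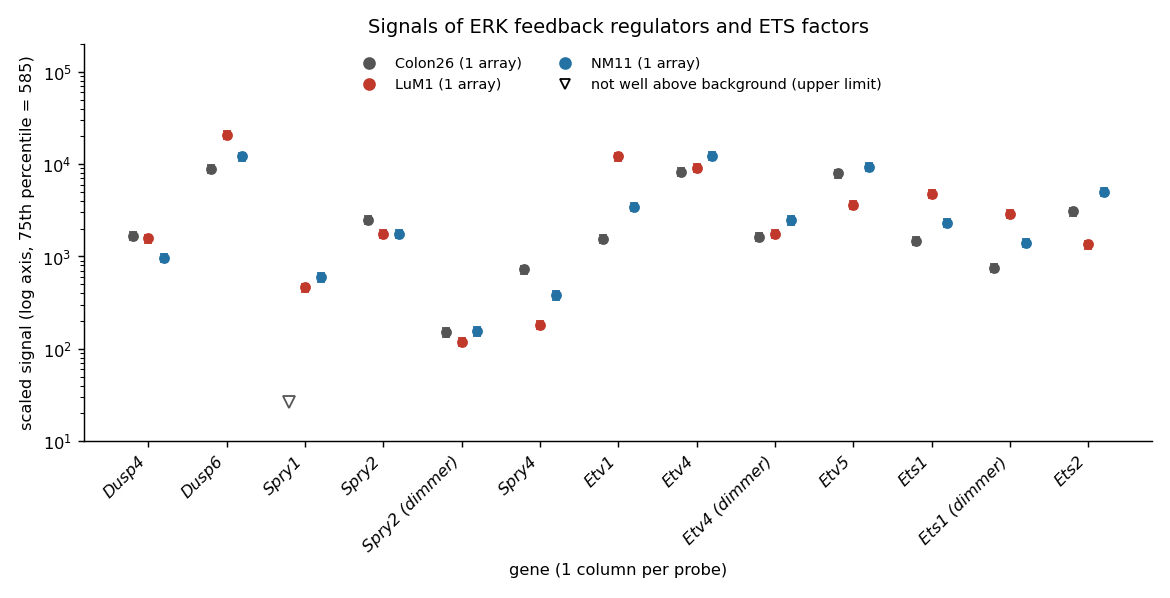
Scaled signal (log axis) of each of the 13 probes in Colon26, LuM1 and NM11 cells, 1 array per line, with bars for the scanner error and an open triangle for the upper limit of a probe not well above background. *Spry1* is the only gene with such a limit, in Colon26 cells, and both probes of *Ets1* are highest in LuM1 cells and lowest in Colon26 cells.

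The phosphatases differed in pattern. DUSP6 is a cytoplasmic phosphatase that acts mainly on ERK. The scaled signal of *Dusp6* was 8962 ± 896 in Colon26 cells, 20587 ± 2059 in LuM1 cells and 12107 ± 1211 in NM11 cells. LuM1 cells stood 2.30-fold above Colon26 cells (log2 1.20, scanner error 0.20), and 7.6% of measured genes had a ratio as high. They stood 1.70-fold above NM11 cells (log2 0.77), and NM11 cells stood 1.35-fold above Colon26 cells (log2 0.43), all beyond the scanner error. *Dusp6* was therefore ordered LuM1, NM11, Colon26 from high to low, although NM11 and Colon26 cells changed places when the arrays were scaled to *Hprt* (log2 -0.05).

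DUSP4 is a nuclear phosphatase that acts on ERK and other MAP kinases. The scaled signal of *Dusp4* was 1672 ± 167 in Colon26 cells, 1572 ± 157 in LuM1 cells and 973 ± 97.4 in NM11 cells. Colon26 and LuM1 cells did not differ beyond the scanner error (log2 -0.09, error 0.20), and the sign of this small difference turned in 4 of the alternatives, the authors' processed values among them (0.36). NM11 cells were lower than both, by a log2 ratio of -0.78 against Colon26 cells, and LuM1 cells stood 1.62-fold above NM11 cells. Unlike *Dusp6*, *Dusp4* was lowest in the low-metastatic subline.

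The Sprouty genes encode inhibitors that are induced by receptor signalling and block it upstream of ERK. *Spry1* was detected in both sublines and not in their parent. Its scaled signal was 463 ± 46.6 in LuM1 cells and 595 ± 59.6 in NM11 cells, whereas in Colon26 cells the probe was not well above background and read 5.93, at the level of its own error. Against the lowest signal that counts as well above background on the Colon26 array, 26.4, the level was at least 17.5-fold higher in LuM1 cells and at least 22.5-fold higher in NM11 cells. These bounds of 4.13 and 4.49 on the log2 scale depend on how background is treated, and after the normexp correction they were 2.64 and 2.93. The sublines differed from each other by a log2 ratio of -0.36, LuM1 over NM11, which exceeded the scanner error of 0.20 but turned positive when scaled to *Hprt* (0.23) and in the authors' processed values (0.05).

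*Spry4* ran the other way. Its scaled signal was 725 ± 72.7 in Colon26 cells, 183 ± 18.9 in LuM1 cells and 380.3 ± 38.3 in NM11 cells, so the lines were separated from each other by more than the scanner error. The level in LuM1 cells was 3.96-fold lower than that in Colon26 cells (log2 -1.99, error 0.21), and 2.0% of measured genes had a ratio as low. It was also 2.08-fold lower than that in NM11 cells (log2 -1.06), a call lost without scaling (-0.88), after normexp (-0.84), when scaled to *Hprt* (-0.47) and in the authors' processed values (-0.64), and the level in NM11 cells was 1.91-fold lower than that in Colon26 cells (log2 -0.93). *Spry4* was the feedback gene with the lowest ratio of LuM1 over Colon26 in the set, and *Spry1* the one with the highest.

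*Spry2* differed less. Its brighter probe read 2512 ± 251 in Colon26 cells, 1755 ± 176 in LuM1 cells and 1767 ± 177 in NM11 cells. By that probe both sublines lay below Colon26 cells (log2 -0.52 and -0.51) and did not differ from each other beyond the scanner error (log2 -0.01). The dimmer probe read 151 ± 16.1, 119 ± 12.6 and 155 ± 16.0 in the same order, and it placed NM11 cells level with Colon26 cells (log2 0.04) and above LuM1 cells, so the probes disagree on NM11 cells. Neither probe reached 2-fold in any comparison.

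Among the PEA3 factors, *Etv1* and *Etv5* moved in opposite directions in LuM1 cells while *Etv4* stayed close to its level in Colon26 cells. ETV1 is a transcription factor activated by ERK phosphorylation and known as an oncogenic driver in prostate and gastrointestinal stromal tumors. The scaled signal of *Etv1* was 1559 ± 156 in Colon26 cells, 12115 ± 1212 in LuM1 cells and 3459 ± 346 in NM11 cells. The LuM1 level was 7.77 times the Colon26 level (log2 2.96, error 0.20), a ratio that 1.6% of measured genes reached. It was 3.50 times the NM11 level (log2 1.81), and the NM11 level was 2.22 times the Colon26 level (log2 1.15). *Etv1* was the only gene of the set at least 2-fold different between every pair of lines, and among the alternatives to the scaling, only that to *Hprt* made the difference of NM11 from Colon26 cells smaller than 2-fold (log2 0.66).

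ETV5 is a close relative of ETV1 and is induced by fibroblast growth factor signalling in many tissues. The scaled signal of *Etv5* was 7921 ± 792 in Colon26 cells, 3632 ± 363 in LuM1 cells and 9273 ± 927 in NM11 cells. LuM1 cells were thus 2.18-fold below Colon26 cells (log2 -1.12, error 0.20) and 2.55-fold below NM11 cells (log2 -1.35). NM11 and Colon26 cells stood close, at a log2 ratio of 0.23 against an error of 0.20, and this difference turned negative when scaled to *Hprt* (-0.26). The call against Colon26 cells was lost in the authors' processed values (log2 -0.68) and after quantile normalization.

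ETV4, the third PEA3 factor, gave its name (polyoma enhancer activator 3) to the group. The brighter *Etv4* probe read 8305 ± 830.5 in Colon26 cells, 9079 ± 908 in LuM1 cells and 12174 ± 1217 in NM11 cells. LuM1 and Colon26 cells did not differ beyond the scanner error (log2 0.13), and NM11 cells were 1.47-fold above Colon26 cells (log2 0.55). The dimmer probe read 1616 ± 162, 1746 ± 175 and 2467 ± 247 in the same order and gave the same order of lines. LuM1 stood below NM11 cells (log2 -0.42), except when scaled to *Hprt* (0.17).

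*Ets1* and *Ets2* also differed in opposite directions in LuM1 cells. ETS1 and ETS2 are related factors that ERK phosphorylates at a conserved site next to their pointed domain, and ETS1 is known for activating matrix protease genes in invasive cells. The brighter *Ets1* probe read 1466 ± 147 in Colon26 cells, 4788 ± 479 in LuM1 cells and 2313 ± 231 in NM11 cells. The LuM1 level was 3.27 times the Colon26 level (log2 1.71) and 2.07 times the NM11 level (log2 1.05), each with an error of 0.20. The dimmer probe, with signals of 752 ± 75.4, 2878 ± 288 and 1403 ± 140.4, gave log2 ratios of 1.94 and 1.04 for the same comparisons. Both probes therefore ordered the lines LuM1, NM11, Colon26 from high to low.

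The scaled signal of *Ets2* was 3084 ± 308 in Colon26 cells, 1353 ± 135 in LuM1 cells and 4988 ± 499 in NM11 cells. LuM1 cells were 2.28-fold below Colon26 cells (log2 -1.19, error 0.20) and 3.69-fold below NM11 cells (log2 -1.88), and 1.7% of measured genes had a ratio of LuM1 over NM11 as low. NM11 cells were 1.62-fold above Colon26 cells (log2 0.69). The highest level of *Ets2* was thus in the low-metastatic subline, and the sublines lay on opposite sides of their parent. In the authors' processed values the difference of LuM1 from Colon26 cells was below 2-fold (log2 -0.74).

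**Figure D2:**
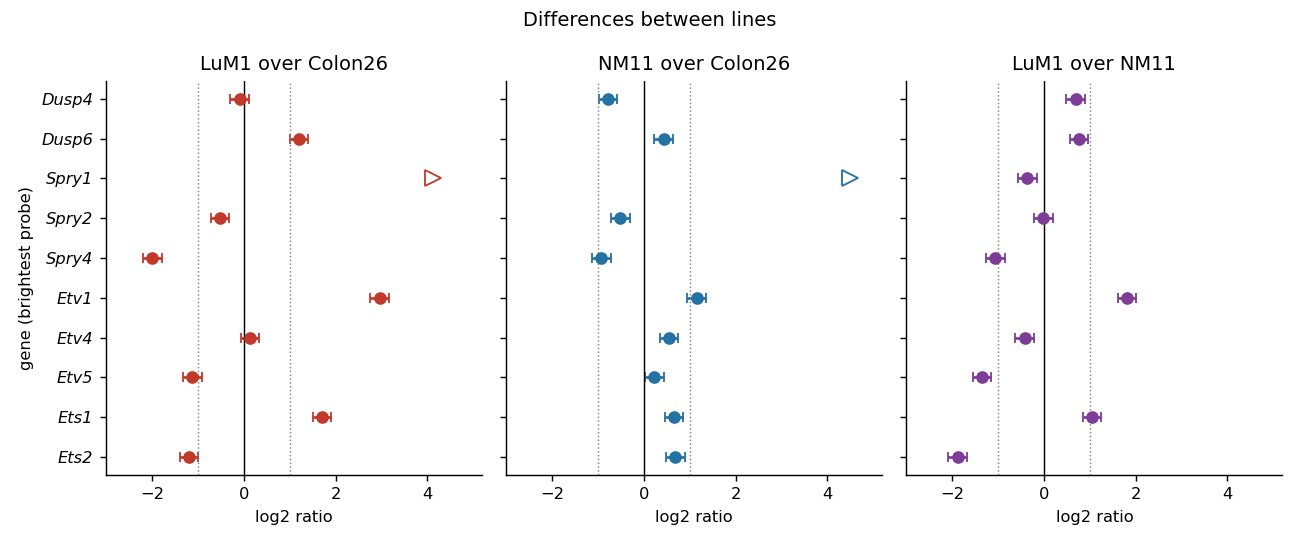
Log2 ratio of each gene (brightest probe) for LuM1 over Colon26, NM11 over Colon26 and LuM1 over NM11, with bars for the scanner error, dotted lines at 2-fold and open arrows for lower bounds. *Etv1* lies past the upper line in all 3 panels, at 2.96, 1.15 and 1.81, and *Spry4*, *Etv5* and *Ets2* lie past the lower line in the LuM1 panels only.

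In NM11 against Colon26 cells, *Spry1* and *Etv1* were at least 2-fold higher, which makes 2 of 10 genes, and 0 were at least 2-fold lower. Over all 14109 genes well above background on either array these shares were 8.17% and 7.74%, or 15.9% in either direction. The members' share was thus near the background. At 1.5-fold the count was 6 of 10, beside 7 in LuM1 against Colon26 cells. The share of all genes at 1.5-fold was not computed, so these counts cannot be set against the 2-fold shares. The median log2 ratio was 0.43 over the 9 members measured on both arrays and -0.02 over 12471 genes. Both genes also passed in LuM1 against Colon26 cells, and the comparisons share the Colon26 array.

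Compared with NM11 cells, LuM1 cells had at least 2-fold higher levels of *Etv1* and *Ets1* and at least 2-fold lower levels of *Spry4*, *Etv5* and *Ets2*, 2 and 3 of 10 genes. Over all 14415 genes well above background on either array, 11.1% were higher and 8.50% were lower by this rule, 19.6% in all. The median log2 ratio was -0.18 over the 10 members and -0.11 over 12851 genes. In the authors' processed values, as when scaled to *Hprt*, the counts became 4 and 1, with *Spry4* and *Etv5* no longer called lower (for *Etv5* log2 -0.94 and -0.76). Among all genes the authors' values gave 2748 higher and 629 lower, and scaling to *Hprt* gave 3581 and 498. The reported scaling gave 1599 and 1225. At the reported scaling the same 5 genes were those at least 2-fold different in LuM1 cells from both other lines, with *Etv1* and *Ets1* higher than both and *Spry4*, *Etv5* and *Ets2* lower than both. By the same rule 7.33% of 14828 genes stood above both other lines in LuM1 cells and 4.03% stood below both. Colon26 cells were at least 2-fold below both sublines in *Spry1* and *Etv1*, and NM11 cells stood apart from both other lines by this rule in 0 of the 10 genes. The shares of all genes that set Colon26 or NM11 cells apart in this way were not computed, so these counts have no background beside them.

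**Figure D3:**
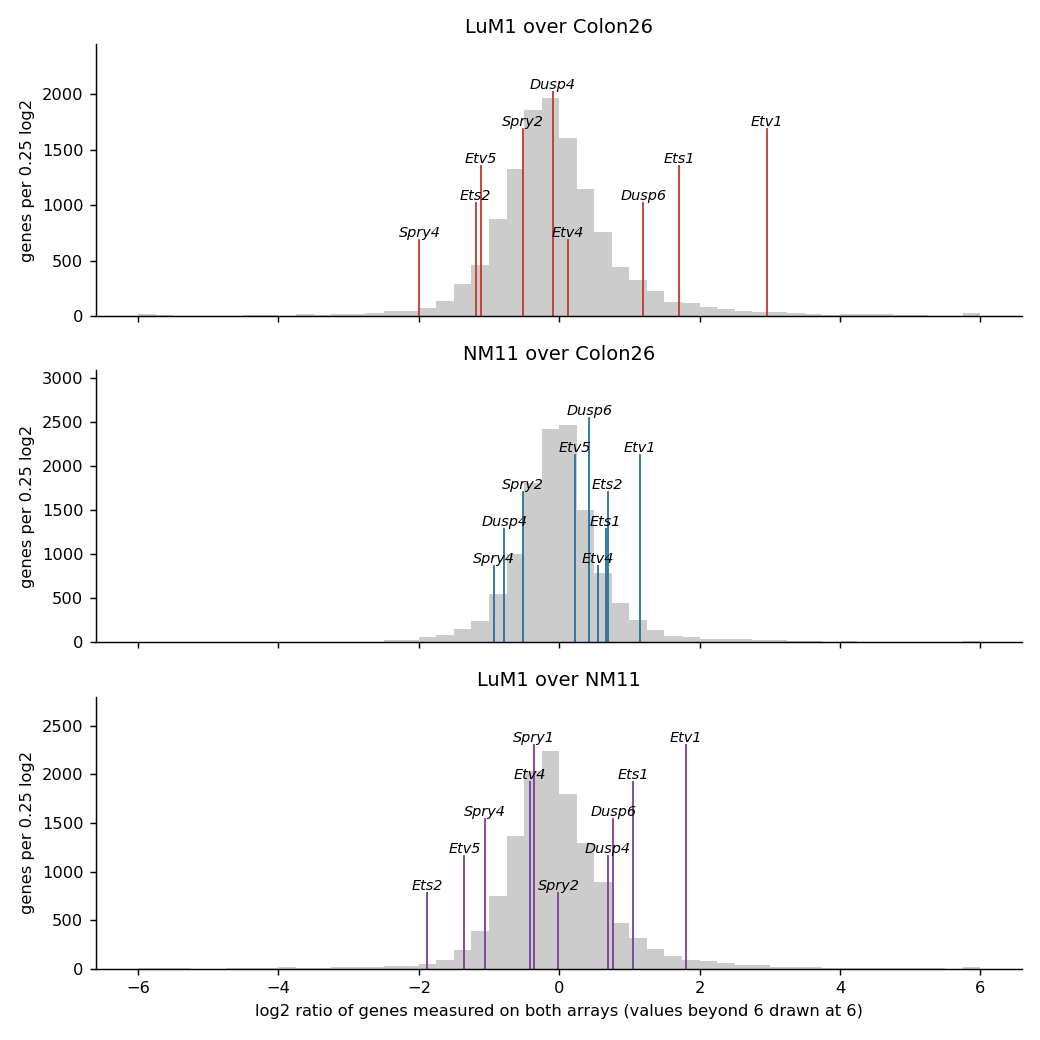
Number of genes per 0.25 log2 units of the ratio between a pair of lines, for all genes measured on both arrays (grey bars), with the members marked by named lines (whose height carries no value) and bounds left out. *Etv1*, at 2.96 for LuM1 over Colon26, lies in the upper tail with 1.6% of genes as high, and *Spry4*, at -1.99, in the lower tail with 2.0% as low.

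The kinases and adaptors that carry the signal had fewer calls, a difference that was not tested. A list of 19 core genes, made of GTPases, kinases, scaffolds and adaptors of the pathway, was measured throughout, with 18 genes detected on every array and 1 on the Colon26 array alone. Of these 19, 1 passed 2-fold upward and 1 downward in LuM1 against Colon26 cells, 0 and 1 in NM11 against Colon26 cells, and 0 and 0 in LuM1 against NM11 cells. Over all genes, 24.6% passed in either direction for LuM1 over Colon26, 15.9% for NM11 over Colon26 and 19.6% for LuM1 over NM11. The authors' processed values and quantile normalization each gave 3 core genes upward in LuM1 against Colon26 cells. Among all genes they gave 3038 and 1871 upward, against 1856 at the reported scaling. Scaling to *Hprt* gave 3 core genes upward in LuM1 against NM11 and 4 downward in NM11 against Colon26 cells. Among all genes it gave 3581 upward and 2727 downward in these comparisons, against 1599 and 1092 at the reported scaling. After normexp 0 core genes passed upward in LuM1 against Colon26 cells and 0 downward in NM11 against Colon26 cells, beside 1319 and 628 of all genes. For LuM1 over Colon26 the measured genes of the list had a median log2 ratio of -0.21, beside -0.13 over all genes. *Mapk3*, which encodes ERK1, read 6474 in Colon26, 11395 in LuM1 and 8599 in NM11 cells (log2 0.82 for LuM1 over Colon26). *Ksr1*, a scaffold for RAF, MEK and ERK, was the higher gene, at dim signals of 28.6 in Colon26 and 80.3 in LuM1 cells (2.80-fold), a call lost after normexp. *Gab1*, a docking protein of receptor kinases, was the lower one. Its signal passed the background rule in Colon26 cells (55.9) and in neither subline, which leaves it at least 2.78-fold lower in LuM1 and at least 2.86-fold lower in NM11 cells. Of the 100 spots nearest to its spot, 0 had this pattern, against 1.89% of all spots. At so low a share 0 of 100 says little, and a fault of this spot alone would not show in its neighbours. The genes of this list were picked for naming with their values in view.

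Of 18 further negative regulators of the pathway, 17 were well above background on all arrays. In LuM1 against Colon26 cells 2 were at least 2-fold higher and 1 lower, in NM11 against Colon26 cells 1 and 2, and in LuM1 against NM11 cells 3 and 2. In the authors' processed values these counts were 5 and 0, 1 and 2, and 5 and 1. Among all genes those values gave 3038 higher and 874 lower, 1210 and 1030, and 2748 and 629 in the same comparisons. At the reported scaling these all-gene counts were 1856 and 1679, 1153 and 1092, and 1599 and 1225. At the reported scaling, 24.6%, 15.9% and 19.6% of all genes passed in either direction in the same comparisons. The list was not tested against these shares. Under the reported scaling the list's median for LuM1 over Colon26 was 0.01 (log2). The brighter probe of *Il17rd*, which encodes the receptor inhibitor SEF, read 171 in Colon26, 623 in LuM1 and 190.2 in NM11 cells, 3.65-fold and 3.27-fold higher in LuM1 cells. Its dimmer probe, near background at 27.7, 26.0 and 24.6, showed no such difference (log2 0.08 for LuM1 over NM11), so the probes disagree. The brighter probe of *Spred3*, a relative of the Sprouty genes, read 82.0, 234 and 113 (2.86-fold and 2.07-fold). Its dimmer probe gave ratios of 5.21 and 1.79, and the call over NM11 cells was also lost after quantile normalization and normexp. *Errfi1*, an inhibitor of the epidermal growth factor receptor, read 28503 in Colon26, 14897 in LuM1 and 45016 in NM11 cells, highest in NM11 and lowest in LuM1 cells. *Dusp2*, a nuclear phosphatase, was lower in both sublines, with 1017 in LuM1 and 976 in NM11 against 2126 in Colon26 cells, though the call of LuM1 against Colon26 cells was lost under 4 of the 6 alternatives to the scaling and background. These genes too were picked with their values in view.

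The other ETS factors differed less in size between the lines, which was not tested against the members. Of 21, 13 were well above background on any array, and 0 of these differed at least 2-fold in any of the 3 comparisons, although 3 (*Etv3*, *Etv6* and *Spdef*) did so upward for LuM1 over Colon26 in the authors' processed values and 1 (*Spdef*) for LuM1 over NM11 when scaled to *Hprt*. Log2 ratios measured on both arrays ran from -0.46 to 0.85 for LuM1 over Colon26 and from -0.58 to 0.58 for LuM1 over NM11. Among factors best known from epithelium or blood, *Elf3*, *Elf5*, *Ehf* and *Spi1* were not well above background on any array, *Spib* was dim but well above it on all (37.8, 27.7 and 31.5 in Colon26, LuM1 and NM11 cells), and *Spdef* was in LuM1 (39.5) and NM11 cells (26.3). Other factors of the list were brighter. In the same order *Elf1* read 478, 585 and 636 and the brighter *Elf4* probe 1238, 1603 and 1641. The dimmer *Elf4* probe read 40.3, 24.8 and 23.8, so the probes disagree in direction. These genes were picked for naming with their values in view. The list had 1 more bounded ratio in each comparison, and none reached 2-fold. Over all genes, 24.6% passed 2-fold for LuM1 over Colon26, 15.9% for NM11 over Colon26 and 19.6% for LuM1 over NM11. Upward, 3038 of all genes passed for LuM1 over Colon26 in the authors' processed values, against 1856 at the reported scaling. For LuM1 over NM11, 3581 passed upward when scaled to *Hprt*, against 1599.

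Of 15 genes known to be induced by ERK, 14 were well above background on some array. In LuM1 against Colon26 cells 4 were at least 2-fold higher (*Fos*, *Ier3*, *Areg* and *Lif*) and 4 lower (*Egr1*, *Fosl1*, *Myc* and *Ier2*), but in the authors' processed values the same comparison gave 4 higher and 0 lower, and after quantile normalization 4 and 1. Among all genes the authors' values gave 3038 higher and 874 lower, and quantile normalization gave 1871 and 1595. The reported scaling gave 1856 and 1679. The median log2 ratio over the measured genes of the list was -0.78. *Areg*, which encodes the epidermal growth factor receptor ligand amphiregulin, read 281 in Colon26, 4227 in LuM1 and 1441 in NM11 cells, 15.0-fold higher in LuM1 and 5.13-fold higher in NM11 than in Colon26 cells. The immediate early gene *Fos* was not well above background in Colon26 cells (27.4) and read 203 in LuM1 and 566 in NM11 cells, at least 7.41-fold and 20.6-fold higher. *Egr1*, another immediate early gene, read 11765, 5098 and 15829 in Colon26, LuM1 and NM11 cells, and *Fosl1*, which encodes a partner of JUN, read 4991, 2377 and 6519.8. Both thus had the order of *Etv5* and *Ets2* at the reported scaling, highest in NM11 and lowest in LuM1 cells. Their log2 ratios of NM11 over Colon26 were 0.43 (*Egr1*) and 0.39 (*Fosl1*). Scaling to *Hprt* shifted this comparison by -0.49, which places both genes highest in Colon26 cells. In NM11 against Colon26 cells 3 genes of the list were at least 2-fold higher and 0 lower, and in LuM1 against NM11 cells 2 were higher and 3 lower. Over all genes, 24.6% passed in either direction for LuM1 over Colon26, 15.9% for NM11 over Colon26 and 19.6% for LuM1 over NM11. The list was not tested against these shares. All genes of the list named here except *Areg* and *Fos* were picked for naming with their values in view.

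**Figure D4:**
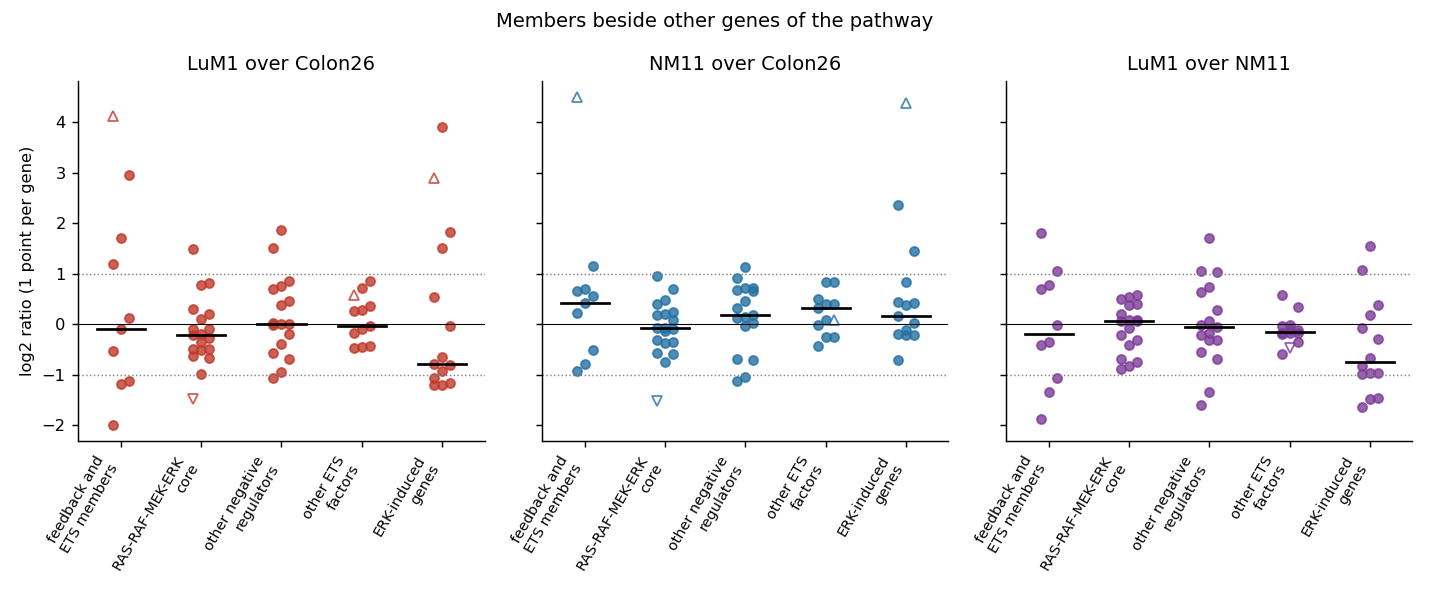
Log2 ratio of every gene with a ratio in the 10 members, the 19 core genes, 18 further negative regulators, 21 other ETS factors and 15 ERK-induced genes, in 3 panels by comparison. Filled points are measured on both arrays, open triangles are bounds, black lines are medians of measured genes and dotted lines mark 2-fold. No other ETS factor passes those lines at the reported scaling, whereas members and ERK-induced genes lie past both lines in the LuM1 panels and past the upper line alone for NM11 over Colon26.

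The lines carried few markers of colon epithelium. Of 11 such markers, 3 were well above background in Colon26, 4 in LuM1 and 3 in NM11 cells, with summed signals of 1176, 463 and 401. *Krt20* read 651 in Colon26, 54.5 in LuM1 and 157 in NM11 cells, 11.9-fold lower in LuM1 and 4.14-fold lower in NM11 than in Colon26 cells. In the same order *Cdx2* read 443, 232 and 167, and *Krt8*, higher in LuM1 cells, read 28.9, 108 and 37.1. *Epcam* was well above background in LuM1 cells alone (28.0). *Cdh1*, *Krt18*, *Krt19*, *Vil1*, *Cdx1*, *Muc2* and *Lgr5* were not well above background on any array. All 8 mesenchymal markers were well above background on every array, with summed signals of 127939, 104054 and 124080.2. Of 9 blood cell and endothelial markers, 5, 6 and 5 were, and the summed signal of 13391 in LuM1 cells against 6594 in Colon26 and 5894 in NM11 cells differed mainly through *Cd68* (5251 in LuM1, 172 in Colon26 and 299 in NM11 cells), while *Ptprc*, *Adgre1* and *Cdh5* were not well above background on any array. *Pdgfra*, a mesenchymal receptor upstream of ERK, had the order of *Etv1* and *Ets1*. It read 218 in Colon26, 3965 in LuM1 and 1286 in NM11 cells. The related receptor *Pdgfrb* did not have this order and stayed within the scanner error, at 993, 966 and 947. *Col1a1* was lowest in LuM1 cells, at 4918, 2247 and 6045. For LuM1 over Colon26, 1 of the 8 mesenchymal markers passed 2-fold upward (*Pdgfra*), 1 downward (*Col1a1*) and 6 neither way. The part of these markers in the differences above was not tested.

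Except for quantile normalization, a change of scaling multiplies all ratios of 1 array over another by the same number. The authors' processed values, which are the scanner signals times 1 factor per array, shifted the median log2 ratio by 0.45 for LuM1 over Colon26 and by 0.41 for LuM1 over NM11, and scaling to *Hprt* shifted it by -0.49 for NM11 over Colon26 and by 0.59 for LuM1 over NM11. Leaving out the scaling shifted it by 0.11 for LuM1 over Colon26 and by 0.18 for LuM1 over NM11. With the authors' factors, as with scaling to *Hprt*, *Dusp4*, *Dusp6*, *Etv1* and *Ets1* passed 2-fold upward in LuM1 against NM11 cells and only *Ets2* passed it downward. The spacing between the genes does not depend on such a factor. In every setting run the ratio of LuM1 over Colon26 was above 1 for *Dusp6*, *Spry1*, *Etv1*, *Etv4* and *Ets1* and below 1 for *Spry2*, *Spry4*, *Etv5* and *Ets2*. For *Etv4* and *Spry2* the sign says little. The log2 ratio of *Etv4* was within the scanner error of 0.20 at the reported scaling (0.13), and that of *Spry2* was -0.07 in the authors' processed values.

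**Figure D5:**
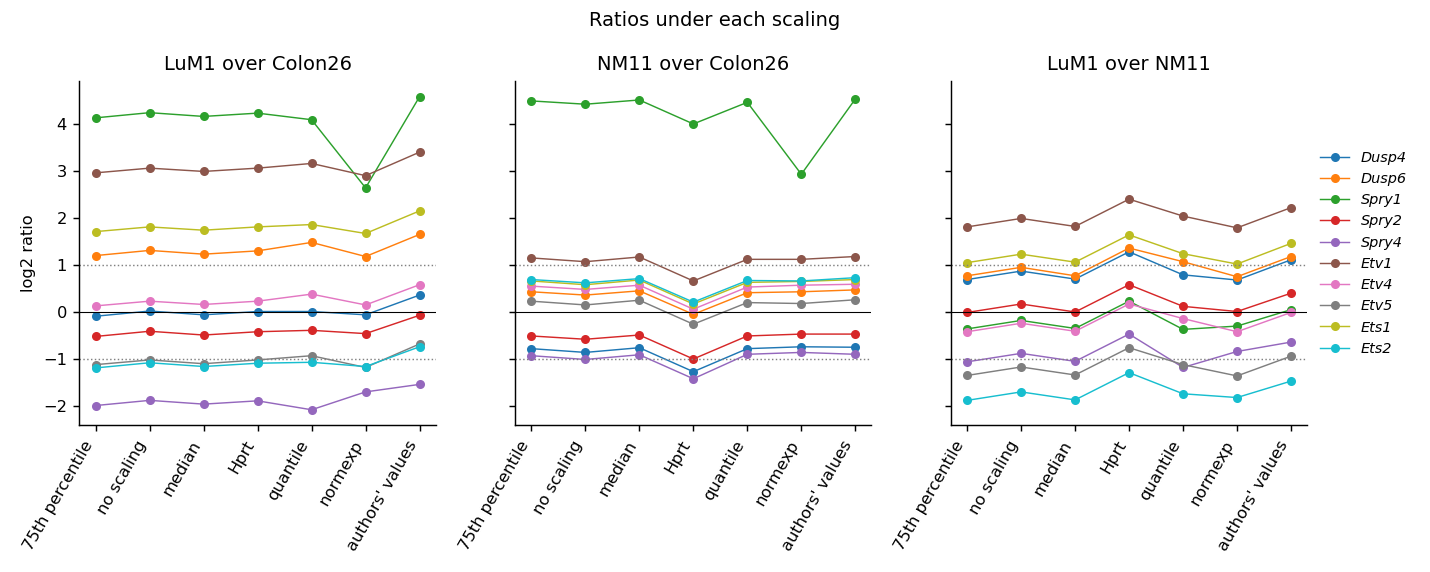
Log2 ratio of each gene under the reported scaling, no scaling and 3 other scalings, normexp background correction and the authors' processed values, in 3 panels by comparison, with dotted lines at 2-fold; the ratios of *Spry1* over Colon26 are lower bounds. Genes move mostly in parallel, and *Etv5* and *Ets2* for LuM1 over Colon26 rise above the lower line in the authors' processed values, to -0.68 and -0.74.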

How the data were processed

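RNA of 3 cell lines was read on 3 single-colour Agilent mouse arrays. The authors deposited intensity values per spot from Agilent Feature Extraction 11.5.1.1, background-subtracted and detrended but not scaled between arrays, and other values that are flags of 0 or 1 per spot for outliers, saturation and signal above background. They also deposited processed intensity values, equal to the scanner intensity times 0.654 (Colon26), 0.829 (LuM1) or 0.706 (NM11), and the rule behind these factors is not given in the sources used here.

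Control spots and outlier spots (137, 74 and 99 per array) were left out, repeated probes were averaged, and arrays were brought to a common 75th percentile, taken over all non-control spots (581.1, 625.1 and 551.5 as deposited). RefSeq accessions of GRCm38.p6 gave a gene name to 32989 of 56599 probes (58.3%). The array was designed on an older build, so probe positions are not given. A probe not well above background enters as a bound, at its own signal or, where that is lower, at the array's lowest signal well above background (26.4, 20.1 and 19.6), and no ratio was taken where both arrays were below background or the bound fell under 1. The members and lists were chosen with earlier results of these data known. The text names every member, and of the other lists the genes at least 4-fold different, at most the 4 largest per list. Others are marked as chosen after their values were seen. The normexp correction was run on the median brightness of spots, the column the files hold. Alternatives were 4 other scalings (none, median, *Hprt*, quantile), normexp with an offset of 50, the authors' values, 2 detection rules, 2 choices of probe and thresholds of 1.5-fold and 4-fold. The calling script was tested on simulated data. Promoter windows came from a RefSeq table. The tools were matplotlib 3.10.9, scipy 1.17.1, pandas 2.3.3 and numpy 2.4.6 under Python 3.11.15, and limma 3.58.1 under R 4.3.3 for normexp.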

Additional observations from a re-analysis of the deposited data

Results flagged for a closer look

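*Etv5* and *Ets2* differed from Colon26 cells in opposite directions in the sublines, lower in LuM1 and higher in NM11 cells. The log2 ratios over Colon26 were -1.12 and 0.23 for *Etv5* and -1.19 and 0.69 for *Ets2*, and the log2 ratio of LuM1 over NM11 was -1.35 for *Etv5* and -1.88 for *Ets2*. With 1 array per line the difference between the sublines was not tested. For *Etv5* the opposite signs were lost when scaled to *Hprt* (NM11 over Colon26 -0.26), whereas *Ets2* kept them there (0.21).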

How the results depend on the processing

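No paired analysis was possible because each line has 1 array. A 4-fold threshold left 2 members different in LuM1 over Colon26, 1 in NM11 over Colon26 and 0 in LuM1 over NM11. A 1.5-fold threshold gave 6 in NM11 over Colon26. The shares of all genes at these thresholds were not computed. The other alternatives kept the member counts within 1.5 times of those reported (7, 2 and 5). Of 280 ratios measured on both arrays, counted once for each of the 10 alternatives that can change a ratio, 233 moved by less than the scanner error and 47 by more, and 0 called ratios changed sign. The bounds of *Spry1* over Colon26 fell to log2 2.64 (LuM1) and 2.93 (NM11) after normexp and rose to 6.29 and 6.65 with the looser detection rule. When scaled to *Hprt*, *Dusp4* and *Spry4* became at least 2-fold lower in NM11 than in Colon26 cells, and *Etv1* was no longer higher. Among all genes called, the share higher was 52.5%, 51.4% and 56.6% for LuM1 over Colon26, NM11 over Colon26 and LuM1 over NM11. It became 77.7% and 81.4% for the first and last in the authors' values, 20.1% and 87.8% for the last pair when scaled to *Hprt*, and 68.6% for LuM1 over NM11 without scaling. Signal over background limits *Spry1*, *Fos* and *Spdef* in Colon26 cells, *Gab1* in the sublines, *Ksr1* and the dimmer probe of *Il17rd*.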
